A study of Mus musculus with 8 samples.

Results

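The genes described here encode the machinery that copies DNA and supplies its building blocks: origin licensing factors, the MCM helicase and its activators, primase and polymerases, the sliding clamp and its loader, single-strand binding and lagging-strand enzymes, enzymes of nucleotide synthesis, and factors that restore chromatin behind the fork. They were taken from a list of 39 mouse genes, each represented by probe sets annotated with a single symbol, and 38 of them were measured among 18193 named genes. Chaf1a was not analysed here. The list was made by function, with earlier results of these data known.

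Expression was profiled on 8 Affymetrix arrays of C2C12, an established mouse myoblast line, in cultures transduced with lentivirus at a multiplicity of infection of 100 and amplified for 5 to 7 days. One group of 4 received siRNA against DOR, the protein of Trp53inp2, and the control group of 4 received scrambled RNA, so both groups carried a virus and had been sorted for GFP (93 to 99% positive, per the labels). All cultures were kept for 4 days in medium with 5% horse serum, a condition in which C2C12 cells leave the cycle and fuse, although the labels also name the samples confluent myoblasts. The replicates of a group are labelled biological without a statement of how they were derived, so the p-values measure the spread between these samples. Values are log2 expression, and differences are DOR siRNA minus scrambled RNA with the standard error of the model.

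Before S phase, the origin recognition complex, Cdc6 and Cdt1 load a double ring of MCM proteins onto DNA, which Cdc45 and the GINS complex then turn into an active helicase. Primase with polymerase alpha starts each strand, the RFC complex loads the PCNA clamp, and polymerases delta and epsilon extend. Most of these genes are known targets of E2F factors, which are held back by the retinoblastoma family when myoblasts leave the cycle to form myotubes, so that transcripts of this machinery normally fall in differentiating muscle cells.

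Some promoters of the group hold sequence forms that the choice of genes did not use. RefSeq promoter windows (GRCm38.p6, from 250 bases before to 50 bases after a transcript start) were given for 31 of the 38 measured genes. They were searched on both strands for 4 forms of the E2F site (TTTGGCGC, TTTCGCGC, TTTCCCGC and TTTGCCGC), for CCAAT, the core of the NF-Y site, and for TTTGAA, a form of the cell cycle homology region. An E2F form lay in a window of 13 of the 31 genes (41.9%), against 3.81% of the 14452 measured genes with a window and 2.60% of all 27025 genes in the table. CCAAT was found for 20 of 31 (64.5%), against 42.0% of measured genes, and TTTGAA for 4 of 31 (12.9%), against 15.7%. A match is a description of these letters and not a bound site. The stretches of 30 bases around the E2F forms of these 13 genes are shown. No single form is held by all of them, and the bases around the forms differ. Each is printed in the direction of the gene, with the forms in capitals; the first number is the position of the first capital counted from the transcript start, and a form on the opposite strand reads as its reverse complement.
Orc1 (-27, chr4:108579416-108579445, plus strand): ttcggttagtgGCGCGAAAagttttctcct
Cdc6 (-138, chr11:98908002-98908031, plus strand): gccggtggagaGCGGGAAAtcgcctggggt
Cdt1 (33, chr8:122568035-122568064, plus strand): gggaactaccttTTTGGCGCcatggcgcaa
Mcm3 (20, chr1:20820275-20820304, minus strand): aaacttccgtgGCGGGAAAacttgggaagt
Mcm3 (39, chr1:20820263-20820292, minus strand): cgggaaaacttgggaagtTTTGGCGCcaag
Mcm5 (-153, chr8:75109347-75109376, plus strand): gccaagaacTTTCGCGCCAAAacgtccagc
Mcm6 (-110, chr1:128359795-128359824, minus strand): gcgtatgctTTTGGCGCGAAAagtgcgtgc
Mcm6 (-47, chr1:128359734-128359763, minus strand): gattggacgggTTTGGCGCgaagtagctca
Mcm7 (-165, chr5:138172030-138172059, minus strand): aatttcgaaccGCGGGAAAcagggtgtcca
Mcm7 (17, chr5:138171849-138171878, minus strand): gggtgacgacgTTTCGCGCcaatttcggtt
Gins3 (-41, chr8:95633507-95633536, plus strand): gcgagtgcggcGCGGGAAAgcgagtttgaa
Pola1 (-138, chrX:93632275-93632304, minus strand): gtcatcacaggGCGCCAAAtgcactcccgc
Pold1 (40, chr7:44548766-44548795, minus strand): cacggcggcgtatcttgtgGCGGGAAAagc
Rfc3 (-10, chr5:151651195-151651224, minus strand): gcacgcTTTCGCGCtcGCGGGAAAactcta
Lig1 (27, chr7:13278841-13278870, plus strand): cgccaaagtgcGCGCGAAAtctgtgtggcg
Uhrf1 (-185, chr17:56304117-56304146, plus strand): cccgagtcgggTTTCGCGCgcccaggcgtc
Of the MCM ring, 4 of the 5 genes with a window held a form (Mcm3, Mcm5, Mcm6 and Mcm7), and all 5 held CCAAT. In Mcm5 and Mcm6 a pair of forms on opposite strands overlapped in a single run. The 250 bases before the start are shown for the pair of genes with the smallest p among the called ones whose bases lie outside the annotated gene, with E2F forms and CCAAT (or its complement ATTGG) in capitals. Mcm6 held 5 such matches and Rfc5 held 0; both transcripts rose.
Mcm6 (chr1:128359706-128359955, minus strand): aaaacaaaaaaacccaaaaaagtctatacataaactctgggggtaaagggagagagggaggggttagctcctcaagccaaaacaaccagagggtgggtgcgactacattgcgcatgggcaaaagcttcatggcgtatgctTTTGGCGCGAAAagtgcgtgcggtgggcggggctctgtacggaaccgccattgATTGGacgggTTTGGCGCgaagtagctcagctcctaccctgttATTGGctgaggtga
Rfc5 (chr5:117389024-117389273, minus strand): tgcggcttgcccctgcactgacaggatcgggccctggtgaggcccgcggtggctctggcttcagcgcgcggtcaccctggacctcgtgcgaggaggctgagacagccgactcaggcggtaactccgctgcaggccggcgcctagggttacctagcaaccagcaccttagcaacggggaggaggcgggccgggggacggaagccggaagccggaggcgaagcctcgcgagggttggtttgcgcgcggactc

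The knockdown was visible in its target. Trp53inp2 is covered by 2 probe sets that did not move alike. On the brighter one the scrambled arrays lay between 10.92 and 11.55 and the knockdown arrays between 9.18 and 9.93 (-1.83 ± 0.17, limma adjusted p = 0.00087), while the other, above the median of all values, did not fall (8.01 in the scrambled and 8.15 in the knockdown mean, 0.14 ± 0.08, 0.52). Over all probe sets 1452 of 45037 (3.22%) were called. Array medians lay between 6.14 and 6.20, and the number of arrays limits the precision. The muscle genes Myog (13.70 in the scrambled mean), Acta1 (14.70) and Des (12.93) were bright, while Adipoq of adipocytes (3.18) and Ptprc of blood cells (3.08) lay far under the median of all values, 6.18. Not every marker of other cells was dim. In the same mean Pparg of the adipocyte list (6.69) and Adgre1 of the blood cell list (6.26) lay above that median. The fibroblast markers Col3a1 (13.78) and Col1a2 (12.21) were bright, while Thy1 (5.14) and Tcf21 (5.31) lay under it.

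As a group, the replication genes were modestly higher in the knockdown. By limma, 7 of 38 rose and 0 fell: Tk1, Pole, Mcm6, Rfc5, Mcm7, Uhrf1 and Cdc45. That is 18.4%, against 3.11% of all genes higher and 1.45% lower. With no adjustment, 22 genes (57.9%) had p under 0.05 and a positive difference, against 11.5% of all genes, and 0 a negative one, against 6.55%. The median difference of the group was 0.32, against 0.015 over all genes, and 33 of 38 differences were positive (86.8%, against 54.9% of all genes, of which 45.1% were negative). Sizes were small: the rise of Tk1 was 1.76-fold, that of Uhrf1 1.58-fold, and those of the other 5 called genes lay between 1.25-fold (Mcm7) and 1.41-fold (Mcm6). For 18 of 38 genes (47.4%, against 8.10% of all genes) the 4 knockdown values lay wholly above the 4 scrambled values, and for 0 wholly below (4.13% of all genes). In these bulk samples a larger share of cycling cells and more RNA per cell cannot be told apart.

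**Figure D1:**
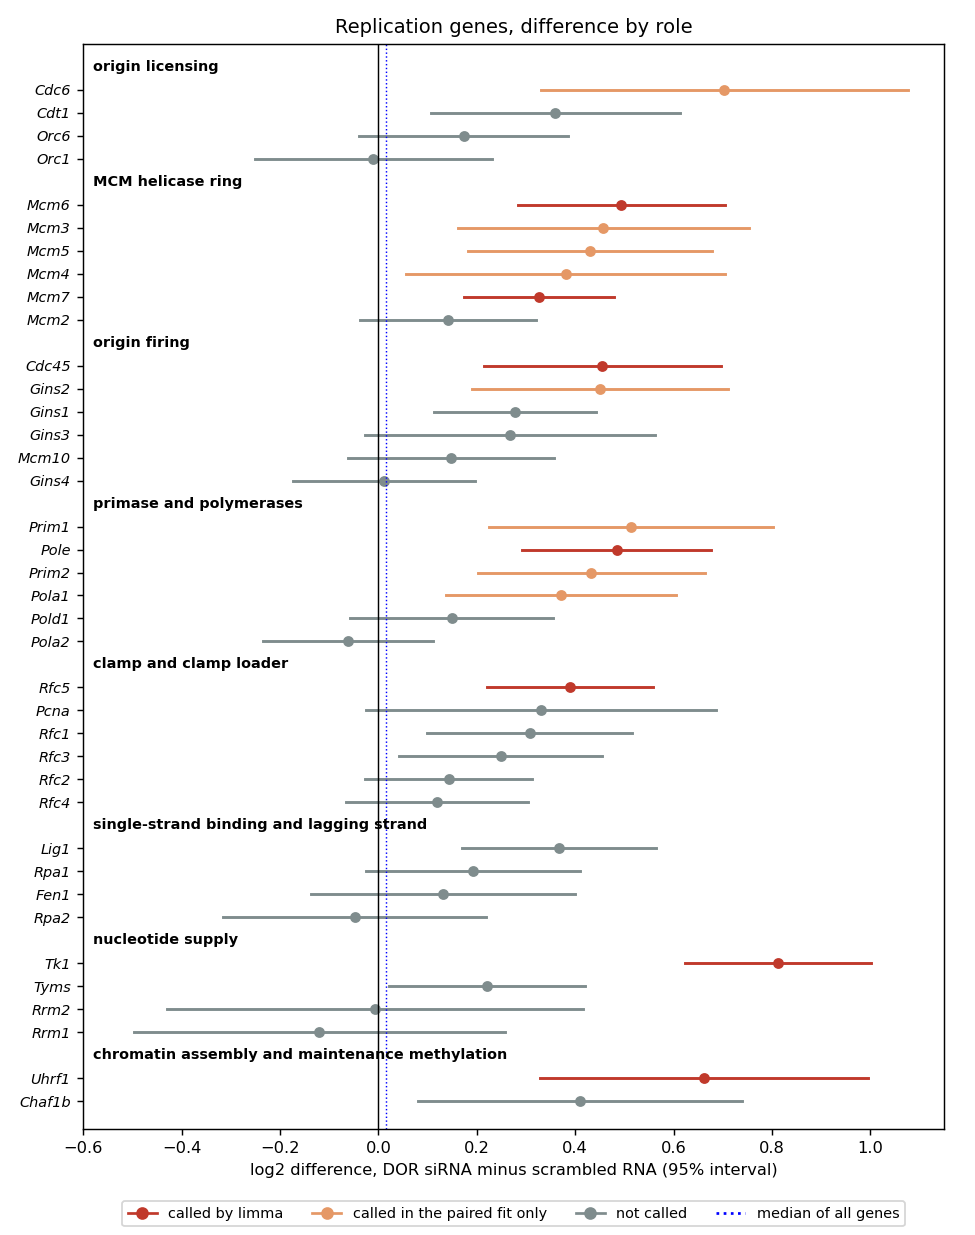
Log2 difference, DOR siRNA minus scrambled RNA, for the 38 genes grouped by role; points are limma estimates from 4 against 4 arrays and bars their 95% intervals. Red points passed the threshold, orange points passed it in the paired fit alone, and the dotted line is the median of all genes (0.015).

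Pairing the cultures of both groups by replicate number raised the count. Deviations from the group means correlated at 0.14 to 0.47 between same-numbered arrays, but also at 0.27 between scrambled 2 and DOR siRNA 1 and at 0.18 between scrambled 1 and DOR siRNA 2. In the paired fit 15 of 38 genes rose (39.5%, against 5.10% of all genes) and 0 fell (3.16%); they include all 7 above and 8 more (Cdc6, Mcm3, Mcm4, Mcm5, Gins2, Pola1, Prim1 and Prim2). The difference within a pair was positive in 4 of 4 pairs for 29 genes (76.3%, against 18.1% of all genes), and negative in 4 of 4 for 0 (12.5%). Scrambled 4 held the highest scrambled value for 27 of 38 genes and DOR siRNA 4 the highest knockdown value for 25, whereas scrambled 2 held the lowest for 23 and DOR siRNA 2 the lowest for 21. The mean shift of the 38 genes from the scrambled mean was -0.023, -0.14, -0.019 and 0.18 in scrambled 1 to 4 and 0.26, 0.18, 0.32 and 0.41 in DOR siRNA 1 to 4. Scrambled 4 thus reached the level of DOR siRNA 2, and the groups overlapped slightly in this mean. Without scrambled 4, 14 genes rose (4.33% of all genes did). The count was 9 without DOR siRNA 2 (2.61%), 3 when scrambled 2 (1.51%), scrambled 3 (1.34%) or DOR siRNA 1 (1.73%) was left out, and 2 when scrambled 1 (1.51%) or DOR siRNA 4 (2.56%) was left out. Without DOR siRNA 3 it was 1, Tk1 (1.41%).

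**Figure D2:**
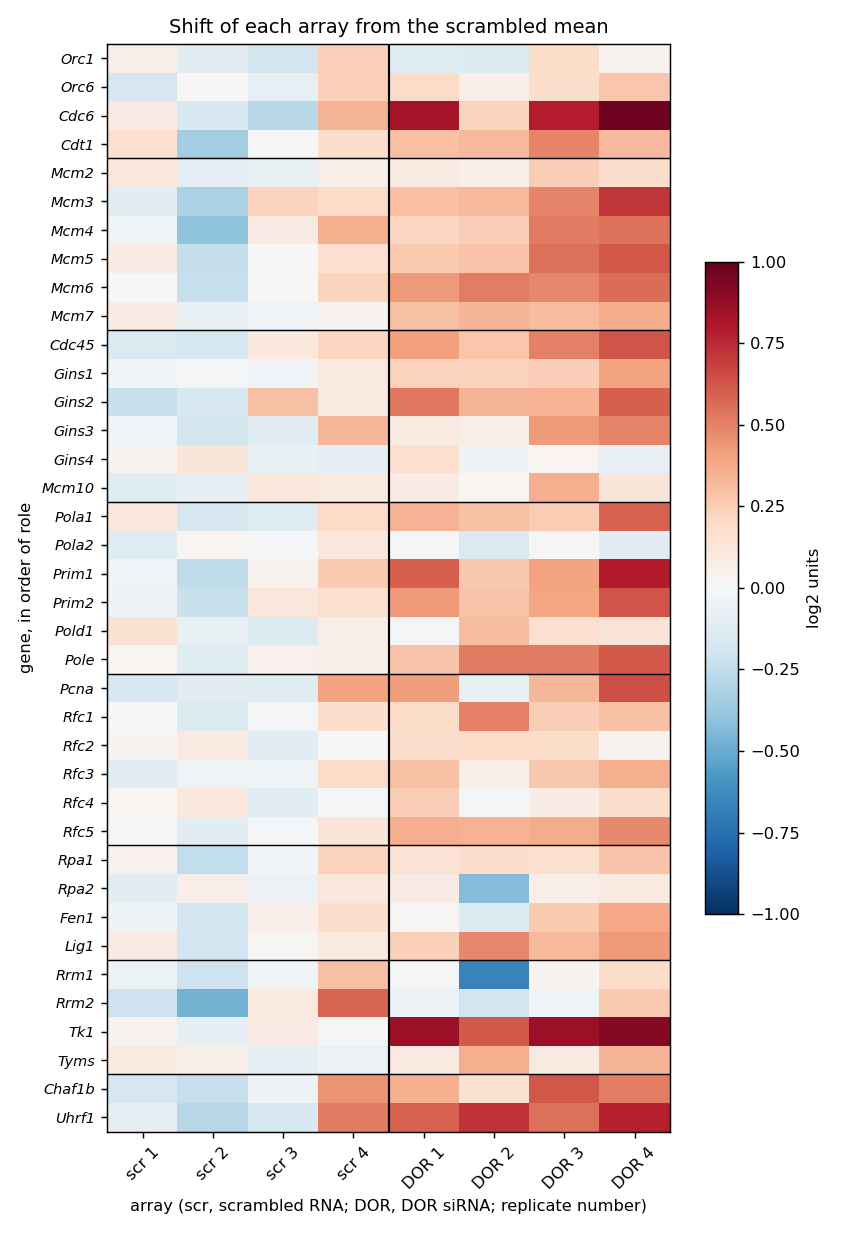
Shift of every array from the mean of the scrambled arrays, in log2 units by colour, for the 38 genes in order of role; black lines part the roles and the groups. Tk1 stands out in all 4 knockdown arrays, Rrm1 and Rrm2 do not, and scrambled 4 is warmer than the other scrambled arrays for most genes.

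Of the licensing factors, none of 4 passed the threshold; before adjustment 2 had p under 0.05. Cdc6, the ATPase that brings MCM to origins, read 6.25, 6.02, 5.89 and 6.51 in scrambled 1 to 4 and 7.00, 6.39, 6.95 and 7.13 in the knockdown. Only DOR siRNA 2 fell within the scrambled range, and the difference was 0.70 ± 0.17 (limma adjusted p = 0.0501), which passed in the paired fit (0.0083), without DOR siRNA 2 (0.86, 0.011) and without scrambled 4 (0.82, 0.021). Its partner Cdt1 read 8.88, 8.36, 8.71 and 8.88 against 9.01, 9.03, 9.20 and 9.03. These groups did not overlap, but the difference (0.36 ± 0.11) had a limma adjusted p of 0.13. Orc1, the largest subunit of the origin recognition complex, read 6.62, 6.45, 6.38 and 6.80 against 6.44, 6.43, 6.75 and 6.60. Its groups overlapped throughout (-0.01 ± 0.11, 95% interval -0.25 to 0.23), and Orc6 differed by 0.17 ± 0.10.

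The MCM ring rose in part, with 2 of 6 subunits past the threshold and 5 of 6 in the paired fit. Mcm6 read 9.34, 9.11, 9.34 and 9.56 in scrambled 1 to 4 against 9.76, 9.85, 9.82 and 9.90 in the knockdown (0.49 ± 0.10, limma adjusted p = 0.021). Mcm7 read 10.02, 9.89, 9.91 and 9.97 against 10.24, 10.29, 10.25 and 10.32 (0.33 ± 0.07, limma adjusted p = 0.030). In both, the lowest knockdown array exceeded the highest scrambled one. Mcm5 read 8.0, 7.69, 7.93 and 8.09 against 8.19, 8.21, 8.48 and 8.55 without overlap (0.43 ± 0.11, limma adjusted p = 0.067; 0.021 paired and 0.043 without scrambled 4). Mcm3 (0.46 ± 0.13) and Mcm4 (0.38 ± 0.15) passed in the paired fit alone (0.016 and 0.046). Mcm2, which carries histones as well as forming the ring, showed the smallest difference of the 6: 9.19, 8.98, 9.0 and 9.13 against 9.16, 9.13, 9.32 and 9.25 (0.14 ± 0.08, 95% interval -0.037 to 0.32). That interval overlaps those of the other subunits. On the dimmer probe set of Mcm2 the difference was 0.23 ± 0.08 without overlap between groups (limma adjusted p = 0.16). Mcm6 lost its call without scrambled 1, scrambled 3, DOR siRNA 3 or DOR siRNA 4 (limma adjusted p 0.0504 to 0.065), and Mcm7 whenever an array other than scrambled 4 or DOR siRNA 2 was left out (0.060 to 0.091), with differences of 0.31 or more throughout.

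Of the 6 genes that turn the loaded ring into a helicase, 1 rose. Cdc45 read 6.90, 6.87, 7.15 and 7.26 in scrambled 1 to 4 against 7.46, 7.32, 7.55 and 7.68 in the knockdown (0.45 ± 0.11, limma adjusted p = 0.0499; 0.0097 paired). The groups did not overlap, but the call stood at the edge: with 1 array left out it was kept only for scrambled 4 and DOR siRNA 2 (limma adjusted p up to 0.154 otherwise). The GINS subunits differed among themselves in size. Gins2 read 7.17, 7.23, 7.69 and 7.48 against 7.92, 7.73, 7.74 and 7.99 (0.45 ± 0.12, limma adjusted p = 0.067; 0.045 paired and 0.045 without scrambled 3). Gins1 read 6.58, 6.61, 6.59 and 6.72 against 6.85, 6.86, 6.87 and 7.03 (0.28 ± 0.07, limma adjusted p = 0.073). Neither overlapped between groups, whereas Gins4 did: 9.05, 9.13, 8.94 and 8.92 against 9.18, 8.96, 9.03 and 8.92 (0.01 ± 0.08, 95% interval -0.17 to 0.20). Gins3 (0.27 ± 0.13) and Mcm10, which helps to activate the helicase (0.15 ± 0.10), did not pass either.

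Among primase and polymerase subunits, 1 of 6 rose and 4 did so in the paired fit. Pole, the catalytic subunit of polymerase epsilon of the leading strand, read 6.97, 6.83, 6.99 and 7.01 in scrambled 1 to 4 against 7.23, 7.47, 7.46 and 7.56 in the knockdown. The groups were clear of each other (0.48 ± 0.09, 1.40-fold, limma adjusted p = 0.015), and without DOR siRNA 3 alone the call was lost (0.47, 0.054). Prim2, the large primase subunit, read 7.59, 7.42, 7.75 and 7.80 against 8.07, 7.93, 8.04 and 8.27 (0.43 ± 0.10, limma adjusted p = 0.0501; 0.014 paired). It passed without scrambled 4 (0.031) or DOR siRNA 2 (0.042), as did the catalytic subunit Prim1 (0.51 ± 0.13, limma adjusted p = 0.062; 0.0076 paired; 0.027 and 0.037). Pola1, the catalytic subunit of polymerase alpha, differed by 0.37 ± 0.11 (limma adjusted p = 0.091; 0.023 paired; 0.046 without scrambled 4). Its accessory subunit Pola2 read 8.14, 8.29, 8.25 and 8.38 against 8.26, 8.12, 8.28 and 8.15. Those groups overlapped (-0.06 ± 0.08, 95% interval -0.24 to 0.11). Pold1, the catalytic subunit of polymerase delta, differed by 0.15 ± 0.09 and did not pass.

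The clamp loader rose in 1 subunit. Rfc5 read 7.94, 7.82, 7.91 and 8.05 in scrambled 1 to 4 against 8.29, 8.27, 8.30 and 8.41 in the knockdown (0.39 ± 0.08, 1.31-fold, limma adjusted p = 0.023). The groups did not overlap, yet the call was lost when any array but scrambled 4 or DOR siRNA 2 was left out (0.056 to 0.072). Rfc1, the large subunit, read 8.11, 7.97, 8.09 and 8.29 against 8.30, 8.62, 8.36 and 8.40, just without overlap (0.31 ± 0.09, limma adjusted p = 0.12). Rfc4 read 8.18, 8.26, 8.04 and 8.14 against 8.40, 8.13, 8.23 and 8.33 with overlap (0.12 ± 0.08, 95% interval -0.066 to 0.30), and Rfc2 (0.14 ± 0.08) and Rfc3 (0.25 ± 0.09) did not pass. Pcna, the clamp itself, averaged 11.83 ± 0.27 in the scrambled and 12.16 ± 0.30 in the knockdown arrays (SD, n = 4 each). Its difference, 0.33 ± 0.16, was positive in 4 of 4 pairs but smaller than the range of 11.67 to 12.23 among the scrambled arrays (limma adjusted p = 0.37).

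None of the 4 genes of single-strand binding and the lagging strand passed. Lig1, the ligase that joins Okazaki fragments, came closest: 8.06, 7.78, 7.98 and 8.07 in the scrambled arrays against 8.21, 8.45, 8.30 and 8.40 in the knockdown. Its groups did not overlap (0.37 ± 0.09, limma adjusted p = 0.052), and it passed without scrambled 4 (0.40, 0.041). Rpa1, the large subunit of replication protein A, read 11.02, 10.73, 10.95 and 11.20 against 11.12, 11.15, 11.14 and 11.26 with overlap (0.19 ± 0.10). Rpa2 of the same complex read 8.19, 8.37, 8.25 and 8.42 against 8.39, 7.87, 8.37 and 8.40, where DOR siRNA 2 was the lowest of all (-0.05 ± 0.12, 95% interval -0.31 to 0.22). Fen1, the flap endonuclease, differed by 0.13 ± 0.12.

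By the brightest probe set of each gene, nucleotide supply held both the largest rise and the most negative difference of the group. Tk1, which salvages thymidine and is made mainly in S phase, read 7.80, 7.67, 7.84 and 7.74 in scrambled 1 to 4 against 8.62, 8.37, 8.62 and 8.68 in the knockdown. The lowest knockdown value exceeded the highest scrambled one by more than the spread of either group (0.81 ± 0.09, limma adjusted p = 0.0013). It was the only one of the 7 calls kept whichever array was left out, with differences of 0.78 to 0.88 and limma adjusted p of at most 0.0090. Ribonucleotide reductase, which makes deoxynucleotides, gave the lowest differences of these genes. Its large subunit Rrm1 read 10.29, 10.15, 10.31 and 10.65 against 10.34, 9.68, 10.38 and 10.53 (-0.12 ± 0.17, 95% interval -0.50 to 0.26). The small subunit Rrm2 read 11.11, 10.84, 11.42 and 11.90 against 11.26, 11.13, 11.27 and 11.58 (-0.01 ± 0.19, 95% interval -0.43 to 0.42). In both genes the groups overlapped, 2 of 4 pairs were higher and 2 lower, and replicate 4 was the highest of either group. Another bright probe set of Rrm1 differed by 0.02 ± 0.10, with DOR siRNA 2 at 9.82, so the sign depends on the probe set. The dimmer probe sets of Rrm2 gave 0.02 ± 0.17 and -0.07 ± 0.24. Tyms, thymidylate synthase, read 5.27, 5.25, 5.10 and 5.13 against 5.28, 5.55, 5.28 and 5.53 (0.22 ± 0.09, limma adjusted p = 0.26). Its groups did not overlap, but these values lie under the median of all probe sets, where differences are compressed. The dimmer probe sets of Tyms did not move alike (0.24 ± 0.09, -0.08 ± 0.11 and -0.15 ± 0.07), and the last was lower in 4 of 4 pairs.

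**Figure D3:**
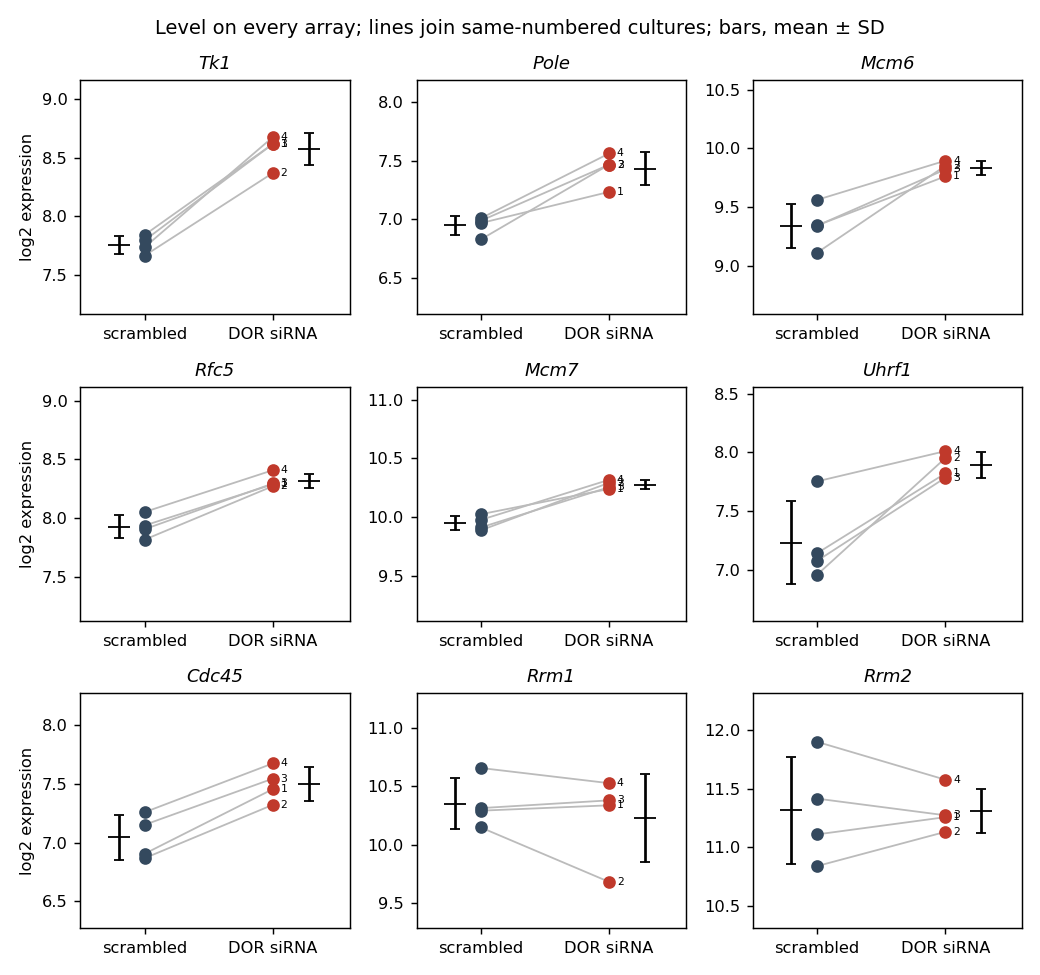
Log2 expression on every array for the 7 called genes and for Rrm1 and Rrm2, scrambled RNA (dark) and DOR siRNA (red), each panel spanning 2 log2 units; lines join same-numbered cultures, digits are replicate numbers, and bars are mean ± SD (n = 4). The 7 called genes show no overlap between groups, while lines of Rrm1 and Rrm2 run in both directions.

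Of the chromatin factors, 1 of the 2 measured rose. Uhrf1, which reads hemimethylated DNA and recruits Dnmt1, read 7.14, 6.96, 7.07 and 7.75 in scrambled 1 to 4 against 7.82, 7.95, 7.78 and 8.01 in the knockdown. Scrambled 4 came close to the lowest knockdown array without reaching it (0.66 ± 0.15, limma adjusted p = 0.041). Without scrambled 4 the difference was 0.84 (limma adjusted p = 0.0023), and leaving out any other array ended the call (0.071 to 0.125). Chaf1b, a subunit of the histone chaperone CAF-1, read 6.41, 6.34, 6.52 and 7.02 against 6.93, 6.73, 7.19 and 7.08. Scrambled 4 lay among the knockdown values, and the difference of 0.41 ± 0.15 (limma adjusted p = 0.20) passed without that array (0.56, 0.022).

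Further probe sets gave the same picture for several genes and not for all. The 38 genes have 85 probe sets, of which 10 rose (2.04% of all probe sets did) and 0 fell. Of the 47 that were not the brightest of their gene 3 rose: one of Mcm5 (0.44 ± 0.09, limma adjusted p = 0.030), one of Gins2 (0.57 ± 0.12, 0.027) and another of Mcm7 (0.33 ± 0.08, 0.041). Mcm5 and Gins2 were thus called by a dimmer probe set and not by the brightest. The brightest probe set of 8 genes, those 3 among them, carries the maker's s or x mark, which means that its probes can match other transcripts as well. In the paired fit 23 of the 85 rose and 1 fell, a probe set of Pola2 under the median of all values (-0.34 ± 0.12, limma adjusted p = 0.172 unpaired and 0.0485 paired). In that fit 5.10% of all genes rose and 3.16% fell, counted by the brightest probe set of each gene. The second probe set of Cdc45 differed by 0.03 ± 0.08. With the probe sets of a gene averaged, Mcm6 differed by 0.35 and Cdc45 by 0.24, and neither passed (limma adjusted p = 0.055 and 0.090). The average of Mcm6 includes a probe set far under the median of all values (2.88 in the scrambled and 2.95 in the knockdown mean). Its remaining probe set differed by 0.50 ± 0.15 (limma adjusted p = 0.107), close to the 0.49 of the brightest.

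Among 68 further genes of the pathway, 6 rose (8.82%, against 3.11% of all genes), with a median difference of 0.060. The 1 that fell (1.47%) is near the share of all genes (1.45%). In the paired fit 13 rose (19.1%, against 5.10% of all genes) and 2 fell (3.16% of all genes did). Of 16 genes of initiation and its control 2 rose: Dbf4, the activator of the Cdc7 kinase that fires origins (0.45 ± 0.08, limma adjusted p = 0.017), and Recql4, a helicase of initiation (0.38 ± 0.08, 0.035), whose scrambled mean of 5.57 lies under the median of all values. Other polymerase subunits and fork proteins rose for 3 of 21 (14.3%) and fell for 1 (4.76%). Pole2, the second subunit of polymerase epsilon, rose by 0.62 ± 0.10 (limma adjusted p = 0.0094), Top2a, the topoisomerase that untangles daughter strands, by 0.59 ± 0.11 (0.015) and Pclaf, a clamp-associated factor, by 0.60 ± 0.13 (0.036). Pole4 of the same polymerase went the other way, with 9.26, 9.43, 9.33 and 9.21 in scrambled 1 to 4 against 8.95, 8.85, 8.92 and 8.85 in the knockdown (-0.41 ± 0.08, limma adjusted p = 0.016), although the mean over its probe sets fell short of the threshold (-0.20, 0.14). Of 23 other genes of nucleotide metabolism 1 rose, Dut, which removes dUTP (0.38 ± 0.09, limma adjusted p = 0.038). That is 4.35%, near the 3.11% of all genes, and their median was -0.001. None of 8 other genes of chromatin replication passed; Slbp, which binds histone mRNA (0.41 ± 0.10, limma adjusted p = 0.062), and the helicase Hells (0.50 ± 0.14, 0.075) came nearest, and both were called when cultures were paired (0.030 and 0.013), without scrambled 4 (0.012 and 0.015) and without DOR siRNA 2 (0.047 and 0.048).

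The call of Pole2 and that of Top2a were kept whichever array was left out. Dbf4 lost its call without scrambled 3 or DOR siRNA 3 (limma adjusted p = 0.057 and 0.059) and Pole4 without scrambled 3 (0.055). Recql4 kept it only without DOR siRNA 2 or scrambled 4 (up to 0.108 otherwise), Pclaf only without scrambled 4, DOR siRNA 2 or DOR siRNA 3 (up to 0.113) and Dut only without DOR siRNA 2 (up to 0.121). The number called was 16 without scrambled 4, 11 without DOR siRNA 2, 2 without scrambled 3 and 4 when any of the other 5 arrays was left out. The share of all genes that rose in these fits was 4.33%, 2.61%, 1.34% and 1.41 to 2.56%, in that order.

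Of 19 E2F factors, pocket proteins and S-phase kinase genes, 4 rose (21.1%, against 3.11% of all genes) and 0 fell (1.45%). In the paired fit 6 rose (31.6%, against 5.10% of all genes) and 0 fell (3.16%). E2f7, a repressor that is itself induced in S phase, rose by 0.74 ± 0.12 (limma adjusted p = 0.011), from 6.96, 6.73, 6.90 and 7.20 to 7.41, 7.85, 7.63 and 7.86. The pocket protein Rbl1 (p107) rose by 0.40 ± 0.07 (0.017), Ccna2, the cyclin of S and G2 phase, by 0.46 ± 0.09 (0.024) and the activator E2f1 by 0.53 ± 0.13 (0.048). The 4 genes do not overlap between groups. Of the 19, 5 lay wholly above the scrambled values (26.3%, against 8.10% of all genes) and 1 wholly below, E2f8 (4.13% of all genes). E2f8 (-0.25 ± 0.08, limma adjusted p = 0.15) and Rb1 (-0.26 ± 0.10, 0.24) were lower without passing. In 4 of 4 pairs 10 genes were higher (52.6%, against 18.1% of all genes) and 5 lower (12.5% of all genes). E2f7 kept its call whichever array was left out; Rbl1 lost it without scrambled 1, 2 or 3 (up to 0.060), Ccna2 without scrambled 2 or 3 or DOR siRNA 3 or 4 (up to 0.078), and E2f1 unless the array left out was scrambled 3 or 4 (up to 0.139). The number that rose was 5 without scrambled 4, 1 without scrambled 2, 2 when scrambled 1 or 3 or DOR siRNA 3 or 4 was left out, and 3 for DOR siRNA 1 or 2. Of all genes 4.33%, 1.51%, 1.34 to 2.56% and 1.73 to 2.61% rose in these fits, in that order.

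**Figure D4:**
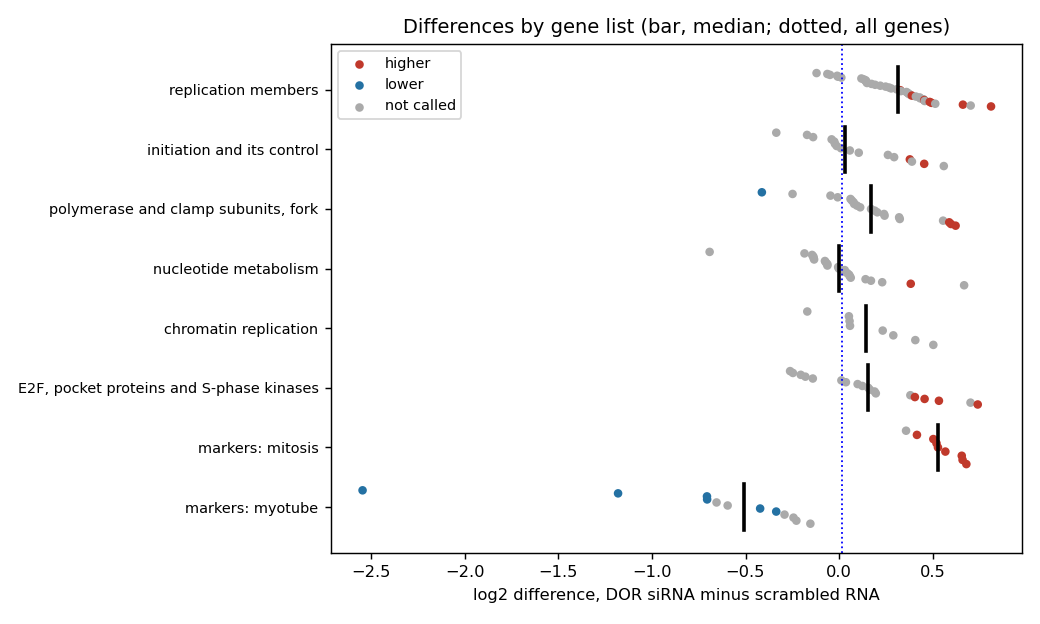
Log2 difference for each gene of the replication group, of 4 lists of other pathway genes, of E2F and S-phase regulators and of mitosis and myotube markers; the black bar is the list's median and the dotted line the median of all genes. The replication group (median 0.32) lies between other fork subunits (0.17) and mitosis markers (0.53), and other nucleotide metabolism genes centre on -0.001.

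Markers of mitosis were higher in the knockdown, as the replication genes were, and markers of myotubes were lower. Of all genes, 3.11% rose and 1.45% fell by limma, and 5.10% and 3.16% in the paired fit. These shares stand beside the counts of every marker list here. Of 9 mitosis markers 8 rose and 0 fell. All 9 rose in the paired fit, where Plk1 joined them (0.36 ± 0.09, limma adjusted p = 0.061, and 0.038 paired). Their median difference was 0.53, and their mean level was 8.29 to 8.52 in the scrambled and 8.88 to 9.01 in the knockdown arrays. Of 12 myotube markers 6 fell and 0 rose (median -0.51); 8 fell in the paired fit, with Ckm, muscle creatine kinase (-0.65 ± 0.23, limma adjusted p = 0.18; 0.0063 paired), and Ttn, titin (-0.60 ± 0.15, 0.055; 0.0074 paired), added. Their mean level was 13.11 to 13.41 against 12.37 to 12.77. Among scrambled arrays the myotube markers were lowest in scrambled 4 (shift -0.15), the array in which the replication genes were highest, and among knockdown arrays lowest in DOR siRNA 4 (-0.89). The mitosis markers did not follow that order among scrambled arrays: they were highest in scrambled 1 (shift 0.13, highest there for 6 of 9 genes) and not in scrambled 4 (0.016, 2 of 9), while among knockdown arrays DOR siRNA 4 was highest (0.62). The mean level of the 38 replication genes was 8.08 to 8.40 in the scrambled and 8.39 to 8.63 in the knockdown arrays. Of 6 markers of the muscle lineage 1 fell, the transcription factor Mef2c (-1.53 ± 0.16). Myf5, a factor of proliferating myoblasts, was higher in the paired fit alone (0.45 ± 0.13, limma adjusted p = 0.080; 0.044 paired). Of 6 reserve cell markers Cd34 rose (1.17 ± 0.14, limma adjusted p = 0.0022), and Spry1 was lower in the paired fit alone (-0.43 ± 0.14, 0.14; 0.016 paired). Of fibroblast markers 1 of 6 rose (Pdgfra), and 0 of 4 adipocyte and 0 of 6 endothelial and blood cell markers passed in either direction. The part of these shifts in the replication result was not tested. A difference between 3' and 5' probe sets of Actb, a sign of RNA quality, was 0.31 to 0.40 in the scrambled and 0.28 to 0.50 in the knockdown arrays, where DOR siRNA 2 was highest.

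**Figure D5:**
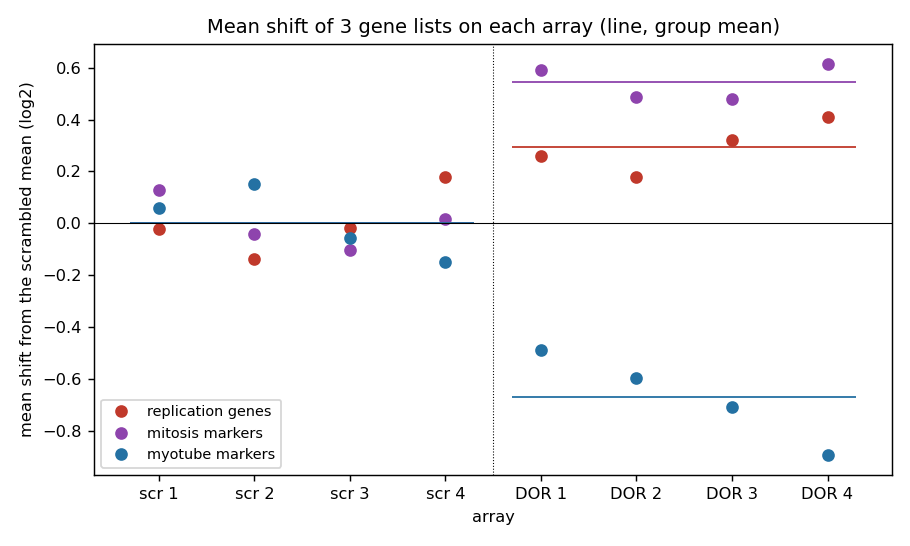
Mean shift of each array from the scrambled mean, in log2 units, for the 38 replication genes, 9 mitosis markers and 12 myotube markers; points are arrays and lines group means. Mitosis and myotube markers separate the groups, while the replication genes of scrambled 4 (0.18) reach those of DOR siRNA 2 (0.18).

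The E2F forms occurred both in genes that rose and in genes that did not. Of the 6 genes that rose and have a promoter window, 3 held a form (Mcm6, Mcm7 and Uhrf1), and of the 25 that were not called, 10 did (40.0%). The window of Tk1, the gene with the largest rise, held none of the motifs searched. Its bases before the start do not all lie outside the annotated gene, so Tk1 was passed over when upstream bases were printed. Whether a form lies further upstream of Tk1 was not tested.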

How the data were processed

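The authors deposited log2 values per probe set, made with RMA per the submitters' processing notes; which release and settings they used is not given in the sources used here. Per the labels' protocols, 25 ng of total RNA per culture was amplified before labelling. RMA equalises the distributions of the arrays, so a shift of all transcripts would not be seen. Of the probe sets, 64 controls were left out and 45037 tested. A single symbol was annotated for 34945 of them, several for 932 and none for 9160; the last 2 kinds were tested but not named. Where a gene has several probe sets, the one brightest on average over the 8 arrays stood for it.

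Groups were compared with limma 3.58.1 (R 4.3.3; group alone, eBayes, two-sided), with Benjamini-Hochberg adjustment over all probe sets and a threshold of 0.05; the steps were tested on simulated data. "Rose" and "fell" mean past that threshold. Same-numbered arrays correlated at 0.14 to 0.47 in their deviations from the group means, each of the 4 pairs above 0.1. The other 12 combinations lay at -0.39 to 0.27, so the ranges overlap and do not settle the pairing alone. Same-numbered samples also share a letter in the labels. The numbers were taken as pairs in a second fit, and its values are given where they change a call. Unless the paired fit is named, calls come from the fit on group alone. The genes and lists were chosen with earlier results of these data known. Values on every array are given, per role, for the 2 or 3 genes with the smallest p and the one with the largest; other lists are represented by up to 4 called genes with the smallest p. Genes are named through the platform annotation and sequences come from RefSeq (GRCm38.p6). A planned search of protein motifs was not run. Alternatives were the replicate block, leaving out each array, a variance trend with robust prior, cyclic loess, median centring, leaving out dim probe sets, the mean of a gene's probe sets and a poly-A control covariate. Figures were drawn with matplotlib 3.10.9.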

Additional observations from a re-analysis of the deposited data

Results flagged for a closer look

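In 6 of 78 groups of 4 arrays (38 genes and Trp53inp2, each in both groups), 1 array stood apart from the other 3; chance gives about 1 in 20 groups. Pcna read 12.23 in scrambled 4, against 11.67 to 11.72 in the other scrambled arrays. Rpa2 read 7.87 in DOR siRNA 2, against 8.37 to 8.40 in the other knockdown arrays. DOR siRNA 4 stood apart for 3 genes, high for Gins1 (7.03 against 6.85 to 6.87) and Rfc5 (8.41 against 8.27 to 8.30) and low for Rfc2 (9.29 against 9.44 to 9.47). Cdt1 read 9.20 in DOR siRNA 3, against 9.01 to 9.03.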

How the results depend on the processing

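The median difference of the 38 genes stayed positive under every alternative run (0.23 as the mean of a gene's probe sets to 0.37 without scrambled 4), and none of them called a gene of the group lower. The number that rose was less stable. It was 15 with the replicate block and 12 without dim probe sets (5.99% of the 11408 genes kept there rose). With the poly-A covariate it was 2 (1.86% of all genes), and it was 1 to 14 when 1 array was left out. Over the array 1452 probe sets were called; this was 2827 with the block, 785 with the poly-A covariate and 608 to 2310 without 1 array. Other pathway genes called numbered 7, and 15 with the block and 2 to 16 without 1 array. The regulators called numbered 4, and 2 with the poly-A covariate, 2 as the mean of probe sets and 1 to 5 without 1 array. Of all genes 5.10% rose with the block, 3.96% as the mean of probe sets and 1.34 to 4.33% without 1 array. The poly-A covariate ended the calls of Mcm6, Mcm7, Cdc45, Rfc5 and Uhrf1 (limma adjusted p 0.060 to 0.12), and kept those of Tk1 and Pole. Differences near 0 changed sign: Orc1 was 0.021 with the poly-A covariate, 0.033 as the mean of probe sets and -0.076 to 0.069 without 1 array, Gins4 -0.040 to 0.053, Rpa2 -0.097 to 0.080, Rrm1 -0.22 to 0.062 and Rrm2 -0.17 to 0.19. The causes were not tested. The count of genes without overlap has no value under the block, the poly-A covariate or another variance model, and the total of probe sets none in the mean of probe sets.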

Other observations

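Other pathway genes passed in the paired fit alone and are named after their values were seen, with the standard errors of that fit. Dck, which phosphorylates deoxycytidine, differed by 0.67 ± 0.10 (paired limma adjusted p = 0.0075), the licensing inhibitor Gmnn by 0.56 ± 0.10 (0.014) and the checkpoint adaptor Clspn by 0.56 ± 0.11 (0.023). The E-type cyclins Ccne1 (0.38 ± 0.08, 0.024) and Ccne2 (0.70 ± 0.13, 0.016) were also higher, with the means of Ccne2 (5.46 and 6.16) under the median of all values. Topbp1, which helps origins to fire (0.39 ± 0.09, 0.039), and the fork protein Tipin (0.32 ± 0.07, 0.037) were higher too. Shmt2, a mitochondrial enzyme of one-carbon metabolism, was lower (-0.69 ± 0.14, 0.025) and read 10.00 in scrambled 4 against 11.30 to 11.36 in the other scrambled arrays. Each of these 8 genes had 4 of 4 pairs in its direction, which largely follows from choosing them by the paired fit. Of all genes, 18.1% were higher and 12.5% lower in 4 of 4 pairs.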
